A study of Mus musculus with 6 samples.

Results

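The genes described here are 9 members of the transforming growth factor-beta (TGF-beta) pathway: the ligands TGFB1, TGFB2 and TGFB3, the receptors TGFBR1 and TGFBR2, the signal transducers SMAD2 and SMAD3, and the matrix genes TGFBI and LTBP2. They were taken by symbol from the deposited table, in which all 9 were found among 39234 genes. The data came from HK-2 cells, an immortalized line of human proximal tubular epithelium, with 3 control libraries and 3 libraries in which USAG-1, the secreted protein encoded by SOSTDC1, was overexpressed. All 6 samples carry the same genotype label (WT), and the study's methods describe overexpression in cultured cells as transient plasmid transfection. The labels give no time after transfection, no vector for the controls and no hypoxia or other treatment. Mouse is given as the species in the labels, but HK-2 is a human line and the table lists human genes. The labels do not say whether replicates were separate cultures, so the p-values below measure the spread between these samples, which may be technical.

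TGF-beta ligands are secreted as latent dimers that are held in the extracellular matrix by latent TGF-beta binding proteins and released by integrins or proteases. An active ligand binds the type II receptor TGFBR2, which recruits and phosphorylates the type I receptor TGFBR1. The type I receptor then phosphorylates SMAD2 and SMAD3, which join SMAD4 and enter the nucleus to regulate transcription. In the kidney the pathway is best known for its part in tubulointerstitial fibrosis, where it raises the expression of matrix genes. USAG-1 is itself known as an antagonist of bone morphogenetic proteins, which belong to the same superfamily of ligands.

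SOSTDC1 rose from 1.64 ± 0.243 CPM, the count divided by the TMM-scaled library size, in control cells to 101 ± 10.6 CPM with overexpression (SD, n = 3 each), in the direction of the labels. Library totals were between 41236194 and 48699471 counts. Control replicate 3 stood apart from the other libraries. It scored -54.3 on the second principal component, against 28.2 and 25.2 for control replicates 1 and 2, and results that it decides are given below with and without it. PAX8, a transcription factor of kidney epithelium, and the epithelial keratin KRT8 were at 375 ± 8.57 and 1081 ± 170.2 CPM (SD, n = 3) in control cells. LRP2, the megalin gene that defines the differentiated proximal tubule, was at 0 in every library, and AQP1 had at most 8 counts. CDH1, listed with KRT8 for simple epithelium, had at most 9 counts. With USAG-1 overexpression PAX8 rose to 448 ± 7.16 CPM. GGT1, also listed for proximal tubule, rose from 105 ± 17.0 to 153 ± 14.2 CPM. CLDN1, of the simple epithelium list, rose from 587 ± 32.1 to 915 ± 19.3 CPM (SD, n = 3 each). KRT8 was at 1100 ± 26.2 CPM with USAG-1 overexpression (log2 fold change 0.03, edgeR adjusted p = 0.897). Of the markers tested, 2 of 5 for proximal tubule and 1 of 5 for simple epithelium were called higher. The others on these lists were not called, and 8.95% of all genes tested rose. The 12 transcripts listed for T and cytotoxic cells summed to between 85.5 and 109 CPM in control libraries and to between 11.3 and 12.7 CPM in USAG-1-overexpressing libraries. All 12 fell at an adjusted p under 0.05, against 6.91% of all genes tested. None of the 12 was at 0 in all libraries. Mitochondrially encoded genes took 4.80% to 5.59% of the counts in control libraries and at most 1.55% in USAG-1-overexpressing libraries.

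The ligands moved in opposite directions. TGFB2 and TGFB3 rose in USAG-1-overexpressing cells, by 1.57-fold and 2.02-fold, whereas TGFB1 and the receptor TGFBR1 fell, to 0.824 and 0.745 of the control level. LTBP2 fell to 0.853 of its control level. For TGFBR2, SMAD2, SMAD3 and TGFBI the adjusted p did not pass 0.05. In all, 5 of the 9 members were differentially expressed (threshold 0.05 on the Benjamini-Hochberg adjusted p of edgeR, over 18188 genes), against 15.9% of all genes tested. Of these, 2 were higher, against 8.95% of all genes tested, and 3 were lower, against 6.91%. The 9 members were chosen with earlier results of these data known. The share called among them is therefore a description and not independent of these data. For 7 of the 9 members the CPM of control and USAG-1-overexpressing libraries did not overlap, as for 37.6% of all genes tested. Across the members the median log2 fold change was -0.07, beside -0.02 for all genes tested. In size, without regard to sign, the median difference was 0.23 on the log2 scale for the members and 0.23 for all genes tested.

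**Figure D1:**
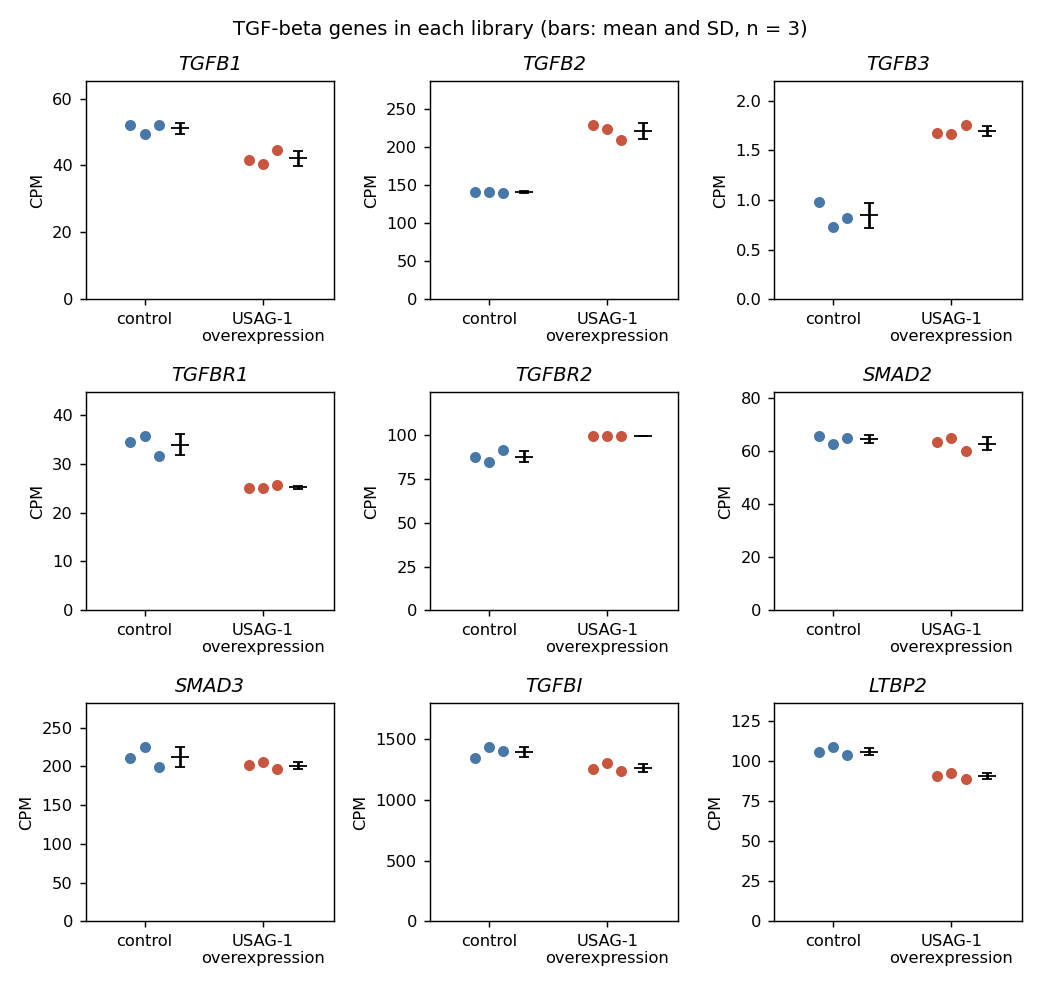
Level of each of the 9 genes in CPM (vertical axis, from 0, with a scale of its own for each gene) in the 3 control and the 3 USAG-1-overexpressing libraries, with 1 point per library and the mean and SD beside them. TGFB2 and TGFB3 lie higher with USAG-1 overexpression, TGFB1, TGFBR1 and LTBP2 lie lower, and the points of SMAD2 and SMAD3 overlap between the groups.

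Among the ligands, TGFB2 (ENSG00000092969; hg38, chromosome 1, 218345336 to 218444619, plus strand) showed the smallest p of the 9 members. Its counts were 5873, 6960 and 5933 without and 10507, 9760 and 9013 with USAG-1 overexpression. On the TMM-scaled CPM scale this was 141, 141 and 139 CPM in control cells and 229, 223 and 209 CPM with USAG-1 overexpression. Every USAG-1-overexpressing library was thus above every control library, and the mean of the control libraries was 140.3 ± 1.01 CPM (SD, n = 3). The log2 fold change was 0.65 (standard error 0.06, 95% interval 0.52 to 0.78, adjusted p = 5.05e-04, edgeR). Of all genes tested, 85.8% had a smaller change in size. TGFB2 was differentially expressed under all 15 other settings of the analysis, with a log2 fold change between 0.63 and 0.69. TGFB2-AS1, which is annotated on the opposite strand of the same locus, had a mean of 25.8 counts beside 8008 for TGFB2.

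TGFB3 (ENSG00000119699; hg38, chromosome 14, 75958097 to 75981995, minus strand) was present at a far lower count. The control libraries held 41, 36 and 35 counts and the USAG-1-overexpressing libraries 77, 73 and 76 counts, so that the groups did not overlap. Its mean level was 0.844 ± 0.128 CPM in control cells and 1.70 ± 0.0501 CPM in USAG-1-overexpressing cells (SD, n = 3 each). The log2 fold change was 1.01 (standard error 0.24, 95% interval 0.46 to 1.56, adjusted p = 0.0256, edgeR), with the widest interval of the 9 members. This call did not hold without control replicate 2 (0.92, adjusted p = 0.0856) or without USAG-1 overexpression replicate 1 (1.03, adjusted p = 0.0825), replicate 2 (1.03, adjusted p = 0.0843) or replicate 3 (0.99, adjusted p = 0.0861). TGFB3 overlaps IFT43 on the opposite strand, which had a mean of 269.8 counts (log2 fold change -0.27, adjusted p = 0.254), and the strand setting of the counting is not given in the sources used here.

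TGFB1 (ENSG00000105329; hg38, chromosome 19, 41301587 to 41353922, minus strand), the ligand most often studied in renal fibrosis, went the other way. Its levels were 52.2, 49.3 and 52.0 CPM in the control libraries and 41.6, 40.3 and 44.5 CPM in the libraries with USAG-1 overexpression. The lowest control value was above the highest value with USAG-1 overexpression, and the log2 fold change was -0.28 (standard error 0.07, 95% interval -0.43 to -0.13, adjusted p = 0.0241, edgeR). The direction held without any 1 library, but the adjusted p rose above 0.05 when control replicate 1 (0.0788) or 2 (0.0522), or replicate 1 (0.105), 2 (0.120) or 3 (0.0504) of the overexpressing cells, was left out. TGFB1 overlaps 5 other genes, among them HNRNPUL1 and CCDC97 on the opposite strand. HNRNPUL1 had a mean of 19806 counts beside 2070 for TGFB1 and a log2 fold change of 0.05 (adjusted p = 0.664). CCDC97 had a mean of 1753 counts and a log2 fold change of 0.15 (adjusted p = 0.247). On the same strand, ENSG00000286177 had a mean of 23.2 counts and a log2 fold change of -1.24 (adjusted p = 0.123, all edgeR). T cells also transcribe TGFB1, and the summed T and cytotoxic cell transcripts given above were lower in the same libraries. The labels name only HK-2 cells, and the source of these T and cytotoxic cell transcripts was not tested. Their part in the fall of TGFB1 was not tested either. In bulk RNA fewer cells of a type and less RNA per cell cannot be told apart.

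Because TGFB2 rose and TGFB1 fell, the ratio of their counts within a library was computed, a measure that no scaling between libraries can change. This ratio and those of the receptors and the SMADs below were chosen after the levels had been seen and are given as descriptions, with no test. The ratio of TGFB2 to TGFB1 counts was 2.69, 2.86 and 2.68 in control cells and 5.50, 5.55 and 4.69 in USAG-1-overexpressing cells. The ratio was thus 1.91-fold higher with USAG-1 overexpression. That the groups do not overlap follows from the levels above, since neither gene overlapped and they moved in opposite directions. The ratio does not compare the amounts of the 2 transcripts, since counts were not taken per length. Summed over the 3 ligand genes, the level was between 191 and 194 CPM in control libraries and between 255 and 272 CPM in USAG-1-overexpressing libraries, most of it TGFB2 counts.

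Of the receptor genes, TGFBR1 fell and TGFBR2 did not pass the threshold. TGFBR1 (ENSG00000106799; hg38, chromosome 9, 99104038 to 99153649, plus strand), the type I receptor kinase, had 34.5, 35.7 and 31.5 CPM in control libraries and 25.1, 25.0 and 25.6 CPM in USAG-1-overexpressing libraries. All 3 values with USAG-1 overexpression lay below the lowest control value. The log2 fold change was -0.43 (standard error 0.07, 95% interval -0.59 to -0.26, adjusted p = 0.00701, edgeR), and TGFBR1 was differentially expressed under all 15 other settings, with an adjusted p of at most 0.0486. No other gene in the table overlaps it.

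For TGFBR2 (ENSG00000163513; hg38, chromosome 3, 30606601 to 30694142, plus strand), the type II receptor that binds the ligand, the levels were 87.7, 84.6 and 91.3 CPM in control libraries and 99.7, 99.7 and 99.4 CPM with USAG-1 overexpression. The groups did not overlap, and the log2 fold change was 0.18 (95% interval 0.05 to 0.31, adjusted p = 0.0633, edgeR). Without control replicate 3, the control library with the highest level, it was 0.22 with an adjusted p of 0.00438. With library sizes alone as the scaling, and with DESeq2's Wald test, TGFBR2 was also differentially expressed. The ratio of TGFBR2 to TGFBR1 counts was 2.54, 2.37 and 2.90 in control cells and 3.97, 3.98 and 3.89 in USAG-1-overexpressing cells, which is 1.52-fold higher. Here too the lack of overlap follows from the levels of the 2 genes.

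**Figure D2:**
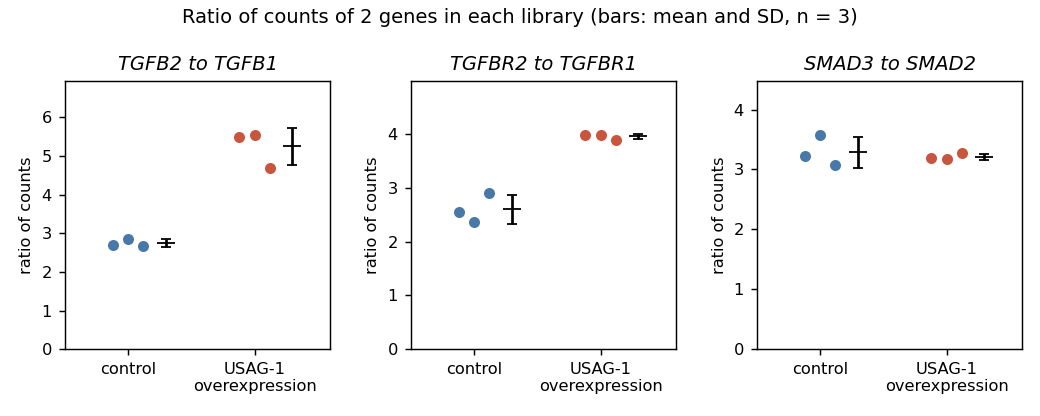
Ratio of the counts of 2 genes within each library (vertical axis, from 0) for TGFB2 to TGFB1, TGFBR2 to TGFBR1 and SMAD3 to SMAD2, with 1 point per library and the mean and SD beside them. The first 2 ratios are higher in all 3 USAG-1-overexpressing libraries, which follows from the levels of their genes. The ratio of SMAD3 to SMAD2 overlaps between control and USAG-1-overexpressing cells.

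The receptor-activated SMADs showed the smallest differences of the 9 members. SMAD2 (ENSG00000175387; hg38, chromosome 18, 47808957 to 47931146, minus strand) was at 65.7, 62.7 and 64.9 CPM in control libraries and at 63.2, 64.9 and 60.0 CPM with USAG-1 overexpression. SMAD3 (ENSG00000166949; hg38, chromosome 15, 67063763 to 67195169, plus strand) was at 211, 225 and 199.7 CPM in control libraries and at 202, 206 and 196 CPM with USAG-1 overexpression. Both pairs of groups overlapped. The log2 fold change of SMAD2 was -0.04 (95% interval -0.18 to 0.10, adjusted p = 0.706) and that of SMAD3 was -0.07 (95% interval -0.21 to 0.06, adjusted p = 0.458, both edgeR). Neither gene was differentially expressed under any of the 15 other settings. The ratio of SMAD3 to SMAD2 counts was 3.29 ± 0.260 in control cells and 3.21 ± 0.0537 with USAG-1 overexpression (SD, n = 3 each). These are transcript levels, and the phosphorylation that activates both proteins was not measured here.

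TGFBI (ENSG00000120708; hg38, chromosome 5, 136028988 to 136063818, plus strand) encodes a secreted matrix protein whose name comes from its induction by TGF-beta. It had the most counts of the 9 members, with 1345, 1433 and 1397 CPM in control libraries and 1253, 1298 and 1236 CPM with USAG-1 overexpression. The groups did not overlap, and the log2 fold change was -0.14 (95% interval -0.25 to -0.03, adjusted p = 0.0985, edgeR). Without control replicate 3 it was -0.13 with an adjusted p of 0.0201. TGFBI was differentially expressed there and with DESeq2's Wald test, and under none of the 13 remaining settings.

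LTBP2 (ENSG00000119681; hg38, chromosome 14, 74498183 to 74612378, minus strand) encodes a microfibril-associated matrix protein of the latent TGF-beta binding protein family. Its levels were 106, 109 and 104 CPM in control libraries and 90.8, 92.5 and 88.9 CPM in USAG-1-overexpressing libraries, again without overlap. The log2 fold change was -0.23 (standard error 0.05, 95% interval -0.35 to -0.11, adjusted p = 0.0251, edgeR). The call was lost when control replicate 1 (adjusted p = 0.0712) or 2 (0.0871), or replicate 1 (0.108), 2 (0.0867) or 3 (0.114) of the overexpressing cells, was left out, while the log2 fold change stayed between -0.24 and -0.21.

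**Figure D3:**
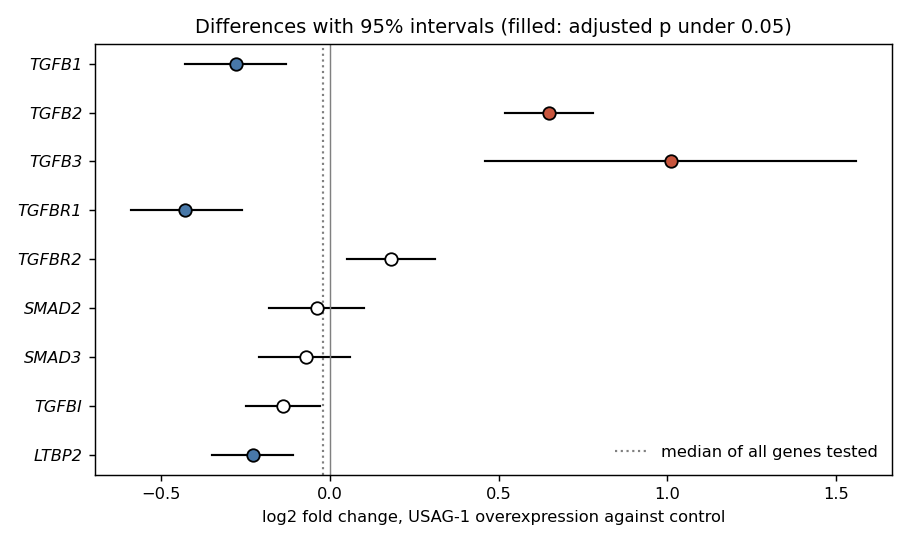
Log2 fold change of each gene in USAG-1-overexpressing against control cells (horizontal axis) with its 95% interval, filled where the adjusted p was under 0.05. The intervals of TGFB2 and TGFB3 lie above 0, those of TGFB1, TGFBR1 and LTBP2 below 0, and those of SMAD2 and SMAD3 include 0. The interval of TGFBR2 (0.05 to 0.31) also lies above 0 and that of TGFBI (-0.25 to -0.03) below 0, but both points are unfilled.

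Single libraries changed how many of the 9 members passed the threshold. Without control replicate 3, 7 of the 9 were differentially expressed, against 27.0% of all genes tested in that fit, the additional ones being TGFBR2 and TGFBI. Without control replicate 1 there were 3 (TGFB2, TGFB3 and TGFBR1), against 10.2% of all genes. Without control replicate 2 there were 2, TGFB2 and TGFBR1, against 8.74% of all genes. The same 2 genes were left without USAG-1 overexpression replicate 1, 2 or 3, where 6.92%, 5.98% and 7.09% of all genes passed. The calls over all genes thus rose and fell with those of the members. No member changed direction under any setting.

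**Figure D4:**
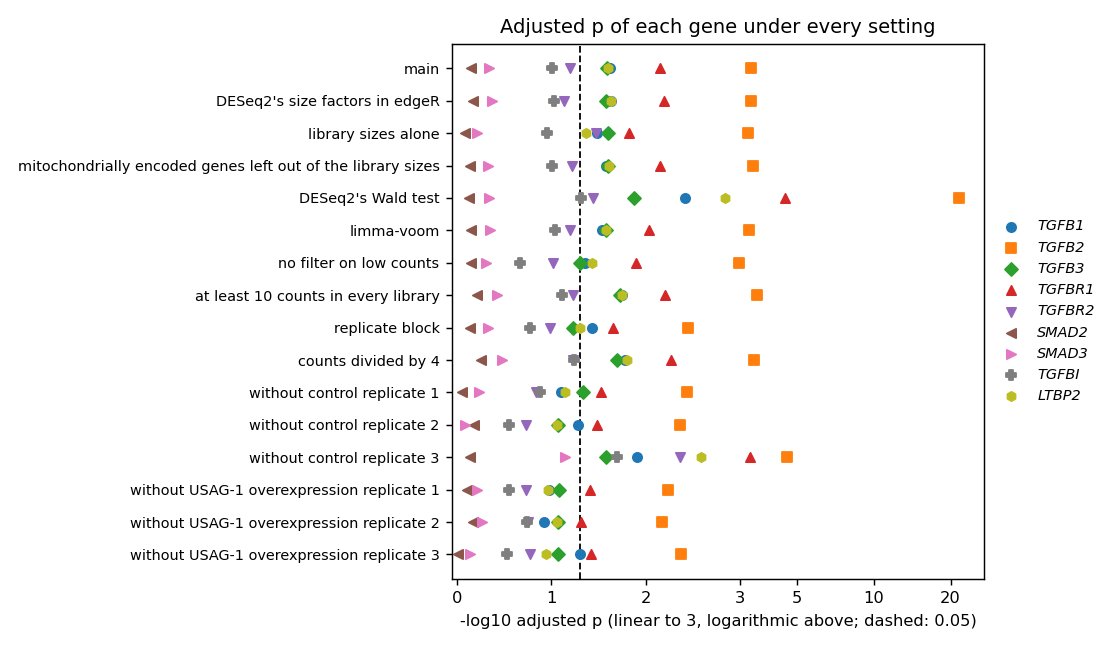
Adjusted p of each of the 9 genes (horizontal axis, as -log10, linear to 3 and logarithmic above) under the main analysis and 15 other settings (rows), with a dashed line at 0.05. TGFB2 and TGFBR1 lie to the right of the line in every row, and SMAD2 and SMAD3 lie to its left in every row.

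The other genes of the pathway were taken from 6 lists typed from general knowledge, but with earlier results of these data known. The shares called in them are therefore descriptions and not independent of these data. The lists hold 81 genes, of which 75 passed the filter on low counts. Of these 75, 24 (32.0%, against 15.9% of all genes tested) were differentially expressed, 13 higher and 11 lower with USAG-1 overexpression, and their median log2 fold change was 0.09, beside -0.02 for all genes tested. Without control replicate 3 there were 43, without USAG-1 overexpression replicate 1 or 2 there were 15 each, and without USAG-1 overexpression replicate 3 there were 14, in fits where the calls over all genes moved the same way (27.0%, 6.92%, 5.98% and 7.09%). Without the filter on low counts there were 15, where 6.26% of all genes passed, and ITGB6, ACVR1, STRAP, TGIF1, PDGFB, ANGPTL4, BHLHE40, PIK3R1 and TAB2 were among those lost. The shares given below for each list are to be read against the 15.9% of all genes tested. In size, without regard to sign, the median difference was 0.24 on the log2 scale for the 75 genes and 0.23 for all genes tested. By list it was 0.36 for the receptors and co-receptors and 0.39 for the TGF-beta-induced transcripts. It was 0.18 for latency and activation, 0.15 for SMADs and their regulators, 0.15 for matrix and myofibroblast genes and 0.11 for the SMAD-independent branch.

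Of the 8 other receptors and co-receptors, 4 rose and none fell (50.0% called). The list had a median log2 fold change of 0.36, and its values ran from 0.09 to 0.55. Endoglin (ENG), a co-receptor of TGF-beta ligands, rose from 38.1 ± 1.95 to 53.6 ± 2.04 CPM (mean ± SD of 3 libraries each), which is 0.50 ± 0.07 as log2 fold change ± standard error (edgeR adjusted p = 0.00265). CD109, a membrane-anchored co-receptor known to dampen TGF-beta signaling, rose by 0.32 on the log2 scale (adjusted p = 0.00634). Both were differentially expressed under all 15 other settings. TGFBRAP1, which encodes a receptor-associated protein, rose by 0.34 (adjusted p = 0.0174), a call that was lost without control replicate 1 (adjusted p = 0.0570) and without USAG-1 overexpression replicate 2 (0.0882) or 3 (0.0718). The type I receptor ACVR1 rose by 0.27 (adjusted p = 0.0369) and lost its call without any 1 library other than control replicate 3, with an adjusted p of up to 0.155.

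Among 11 tested genes that hold the ligands latent or activate them, 1 rose and 1 fell (18.2% called), near the share of all genes. Fibrillin-1 (FBN1), the microfibril protein to which latent complexes bind, rose from 42.3 ± 1.74 to 59.8 ± 3.81 CPM (mean ± SD of 3 libraries each), which is 0.50 ± 0.07 as log2 fold change ± standard error (edgeR adjusted p = 0.00312). ITGB6, the beta subunit of an integrin that activates latent TGF-beta on epithelium, had 23.1 ± 5.82 CPM in control cells and 13.8 ± 1.79 CPM with USAG-1 overexpression (SD, n = 3 each). It fell by 0.75 on the log2 scale (adjusted p = 0.0321). Leaving out any 1 library other than control replicate 3 took the adjusted p of ITGB6 to between 0.0710 and 0.124. Without control replicate 3 it fell by 0.93 (adjusted p = 3.94e-04).

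SMADs other than the 2 members and their regulators were tested in 17 genes, of which 3 rose and 2 fell (29.4% called). PMEPA1, a TGF-beta-induced gene whose product restrains receptor-activated SMADs, fell from 126 ± 0.827 to 71.2 ± 1.79 CPM (mean ± SD of 3 libraries each), which is -0.83 ± 0.05 as log2 fold change ± standard error (edgeR adjusted p = 1.37e-04). NEDD4L, a ubiquitin ligase known to act on activated SMAD2 and SMAD3, rose from 163 ± 8.89 to 237 ± 4.96 CPM (SD, n = 3 each), by 0.54 on the log2 scale (adjusted p = 0.00125). USP15, a deubiquitinase that acts on SMADs and on TGFBR1, rose by 0.46 (adjusted p = 0.00671). These 3 genes were differentially expressed under all 15 other settings. STRAP, which binds the receptors together with SMAD7, rose by 0.24 (adjusted p = 0.0382) and the SMAD corepressor TGIF1 fell by 0.23 (adjusted p = 0.0479). Both lost their calls without any 1 library other than control replicate 3, with adjusted p values of up to 0.136 for STRAP and 0.180 for TGIF1. TGIF1, SMAD4 and SMAD7 were named after their values had been seen. SMAD4, the partner of all receptor-activated SMADs, had a log2 fold change of 0.02 (adjusted p = 0.905), which became -0.03 without control replicate 3. The inhibitory SMAD7, itself a TGF-beta target, had one of 0.14 (adjusted p = 0.268).

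Transcripts known to be induced by TGF-beta did not move in 1 direction. Of 15 tested, 2 rose and 6 fell (53.3% called), and the median log2 fold change was -0.26. The largest rise was in CCN2, the connective tissue growth factor gene, which is also known as a target of the YAP coactivator. It had 101 ± 3.97 CPM in control cells and 223 ± 37.1 CPM with USAG-1 overexpression (SD, n = 3 each) (log2 fold change 1.15 with a standard error of 0.11, edgeR adjusted p = 8.71e-04). TSC22D1, a transcriptional regulator, rose by 0.43 (adjusted p = 0.00233). HMGA2, a chromatin protein, fell by 0.41 (adjusted p = 0.00560). Calls for CCN2, TSC22D1 and HMGA2 held under all 15 other settings.

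IL11, a profibrotic cytokine gene named here after its values had been seen, had 85, 106 and 141 counts in control libraries and 41, 39 and 35 counts with USAG-1 overexpression. It fell by 1.52 on the log2 scale (adjusted p = 0.00728) and was differentially expressed under all 15 other settings. PDGFB (-0.46), ANGPTL4 (-0.38) and BHLHE40 (-0.26, all as log2 fold changes), also named after their values had been seen, fell as well. The calls for these 3 were lost under 5 or 6 of the 15 other settings, with an adjusted p of up to 0.107 for PDGFB (without USAG-1 overexpression replicate 1, 2 or 3 or control replicate 2), 0.130 for ANGPTL4 (without USAG-1 overexpression replicate 1, 2 or 3 or control replicate 1) and 0.152 for BHLHE40 (without USAG-1 overexpression replicate 1 or 3 or control replicate 1 or 2).

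Of 17 matrix and myofibroblast genes, 12 passed the filter, 1 rose and 2 fell (25.0% called). Fibronectin (FN1), with the most counts among them, rose from 12520 ± 344 to 16031 ± 626 CPM (mean ± SD of 3 libraries each), which is 0.36 ± 0.05 as log2 fold change ± standard error (edgeR adjusted p = 0.00250). The matrix glycoprotein gene TNC fell from 299 ± 11.4 to 195 ± 6.27 CPM (SD, n = 3 each), by 0.62 on the log2 scale (adjusted p = 5.67e-04). LOXL2, a collagen-crosslinking enzyme, fell by 0.45 (adjusted p = 0.00146). All 3 were differentially expressed under all 15 other settings. Of the fibrillar collagen genes, COL1A2 was at 0 in every library, and COL3A1 and COL5A1 did not pass the filter. COL1A1 was at 6.50 ± 0.582 CPM in control cells and 6.90 ± 0.551 CPM with USAG-1 overexpression (SD, n = 3 each). COL1A1 and ACTA2 were named after their values had been seen. The myofibroblast gene ACTA2 had at most 74 counts in a library, with a log2 fold change of -0.35 (edgeR standard error 0.53, adjusted p = 0.707).

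In the SMAD-independent branch, 2 of 12 genes rose and none fell (16.7% called), near the share of all genes. PIK3R1, a regulatory subunit of phosphoinositide 3-kinase, rose by 0.38 (adjusted p = 0.0478) and TAB2, an adaptor of the kinase TAK1, rose by 0.28 (adjusted p = 0.0497, both edgeR). PIK3R1 lost its call without any 1 library other than control replicate 3, and TAB2 without control replicate 2 or any 1 of the USAG-1 overexpression replicates, with an adjusted p of up to 0.168 for either gene. Scaling by library sizes alone also ended both calls (adjusted p = 0.0658 for PIK3R1 and 0.0733 for TAB2), and TAB2 was lost with DESeq2's size factors (0.0504) and with counts divided by 4 (0.0515).

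**Figure D5:**
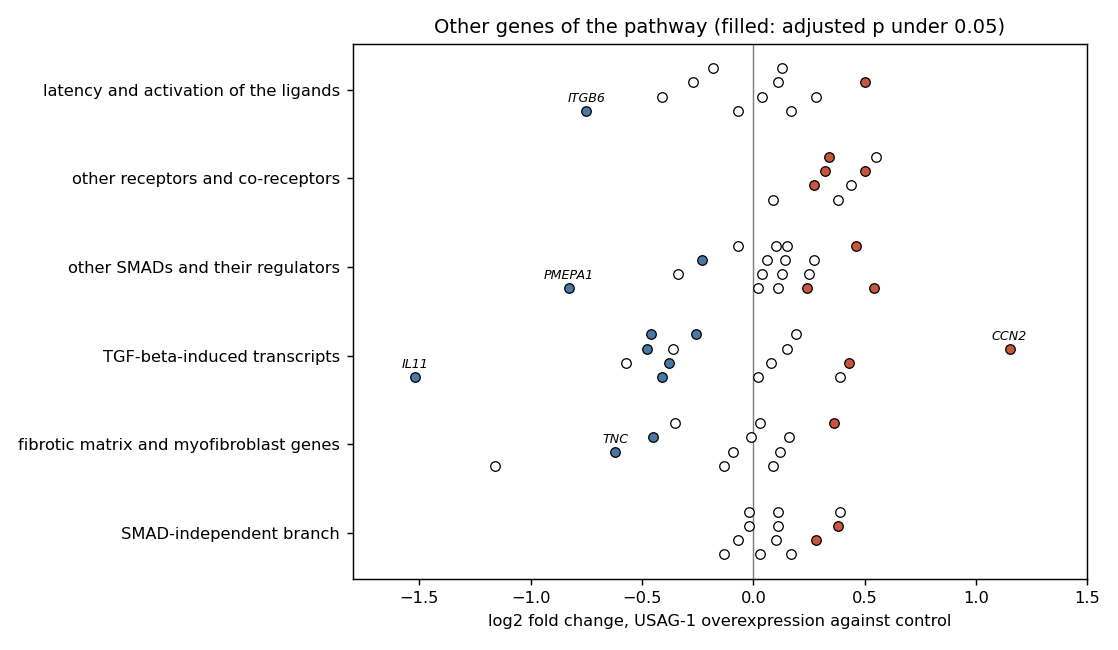
Log2 fold change in USAG-1-overexpressing against control cells (horizontal axis) of the 75 tested pathway genes that are not among the 9 members, in 6 lists (rows), with 1 point per gene, filled where the adjusted p was under 0.05; the vertical spread within a row has no meaning. All 8 receptors and co-receptors lie to the right of 0, and the TGF-beta-induced transcripts reach from IL11 at -1.52 to CCN2 at 1.15.

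Genes with a like pattern were sought for the 2 differentially expressed members with the smallest p. Likeness was the root mean square difference between log2 CPM values, each centred on the gene's own mean over the 6 libraries, among 11100 genes with a symbol and a mean of at least 5 CPM. Nearest to TGFB2 were DOCK4, an activator of Rac and Rap GTPases, at a difference of 0.026, AFF1, a transcription elongation factor, at 0.035, and the retrotransposon-derived gene PEG10 at 0.036. Their log2 fold changes were 0.66, 0.69 and 0.64. Nearest to TGFBR1 were the acyltransferase gene AGPAT4 at 0.033, the kinase gene LRRK1 at 0.033 and the sulfatase gene ARSD at 0.034, with log2 fold changes of -0.38, -0.39 and -0.41. With 6 libraries in 2 groups, such a measure mostly ranks genes by how near their fold changes are.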

How the data were processed

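The authors deposited 1 table of whole-number counts per gene, not normalized, for 6 libraries, with positions, strands and symbols, although the table is titled as FPKM. Per the labels, the libraries were poly(A)-selected, strand-marked (dUTP) and paired-end, and the submitters' processing notes name cutadapt 1.9, FastQC and hg38. The aligner, the counting tool and its strand setting are not given in the sources used here. In every library more genes had exactly 4 counts (1213 to 1448) than 3 (746 to 814) or 5 (430 to 541). A deposited count may therefore not equal 1 independent read pair, and the totals may overstate the depth.

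Genes were filtered with filterByExpr (18188 kept, holding 99.9% of the counts), scaled by TMM and tested with edgeR 4.0.16 (quasi-likelihood F test, no replicate block) over all genes, with Benjamini-Hochberg adjustment. Standard errors were obtained from the log2 fold change and its F statistic. DESeq2, the tool in the study's methods, served as an alternative. The other settings were DESeq2 1.42.0 size factors in edgeR, library sizes alone, mitochondrially encoded genes left out of library sizes, limma-voom 3.58.1, no filter, a minimum of 10 counts in all libraries, a replicate block, each library left out in turn and, added after the excess of 4s was seen, counts divided by 4 and rounded. The code was tested on simulated data. Log2 CPM used a prior count of 2. R was 4.3.3.

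The members and the gene lists were chosen with earlier results of these data known. Named by rule were the members, SOSTDC1, up to 4 differentially expressed genes per pathway list with the smallest p, and 3 genes nearest in pattern to each of 2 members. A gene that the rule names is not reported here. Marker genes of epithelium, proximal tubule, fibroblasts, endothelium, T cells and myeloid cells were also listed. Of the markers tested, 0 of 2 for endothelium changed, 1 of 5 for fibroblasts rose (LUM), 2 of 5 for proximal tubule rose, 1 of 5 for simple epithelium rose, and of 7 for myeloid cells 1 rose and 2 fell. Beside these small counts, 8.95% of all genes tested rose and 6.91% fell. Levels were not compared between genes, since no transcript lengths were used here, and human sequences were not used here. Chi-square per degree of freedom between libraries of a group was at least 6.52, so none was a copy of another.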

Additional observations from a re-analysis of the deposited data

How the results depend on the processing

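Over 15 other settings, none of the 135 log2 fold changes of the 9 members changed sign, 15 lost and 5 gained a call. The number of members called was 5 in the main analysis, and 2 at an adjusted p under 0.01 or with a log2 fold change of at least 0.5 in size. DESeq2's Wald test, from the tool in the study's methods, called 7 members, 31 pathway genes and 3761 genes in all (20.7% of those tested). Leaving out 1 library gave 2 to 7 members, 14 to 43 pathway genes (24 in the main analysis) and 1137 to 5091 differentially expressed genes in all (2884 in the main analysis). Without a filter on low counts 15 pathway genes were called, with more genes in the adjustment. SMAD4, at 0.02, was at -0.03 without control replicate 3 and at -0.00 without USAG-1 overexpression replicate 2, and reached 0.05 without control replicate 2 or USAG-1 overexpression replicate 3, and the cause was not tested. None of the 26 pathway genes tried under these settings other than SMAD4 changed sign (COL1A1 and ACTA2 were not tried). With 2 libraries in a group the fits have fewer samples. Same-numbered libraries did not deviate together (correlations of 0.07, -0.05 and 0.04 over 18188 genes). Not every library correlated best with its own number. With 3 libraries per group these correlations cannot exclude that the numbers pair the libraries. The replicate block gave 4 members called (TGFB3 was lost, adjusted p = 0.0593), 22 pathway genes and 2381 genes in all. Of the named pathway genes it ended the calls of ACVR1 (0.0676), STRAP (0.0525), TGIF1 (0.0876) and BHLHE40 (0.0520). The log2 fold change of SOSTDC1 stayed between 5.86 and 6.05 over the 15 settings. Depth limits TGFB3 most, with 35 to 77 counts.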
